A study of Mus musculus with 10 samples.

Results

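The genes described here code for the machinery that acidifies the lysosome and for the proteases that work in it. They are the protein-coding genes whose symbols name V-ATPase subunits (Atp6v0 and Atp6v1), the V-ATPase accessory proteins Atp6ap1 and Atp6ap2, 12 cathepsins, the LAMP proteins, the transcription factors Tfeb, Tfe3 and Tfec, and the lysosomal channel Mcoln1. This rule found 44 genes among the 55385 gene identifiers of the series. It also caught Atp6v1fnb, a neighbour of Atp6v1f that is not a subunit of the pump. RNA was sequenced from cultured, untreated, sub-confluent mouse melanoma cells in 10 libraries, 5 of the parental line WT31 and 5 of its subline WT31_P5IV. The mice that gave rise to WT31 had the genotype Tyr::NrasQ61K/°; INK4a-/-, so both groups carry the mutant Nras transgene, driven by the melanocyte promoter Tyr, and lack INK4a. WT31_P5IV is 1 subline, made by 5 rounds of tail vein injection, dissection of liver metastases and growth in culture. The labels call the libraries biological replicates without naming separate cultures, so the p-values measure only the spread between these libraries, which may be technical.

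As background, the V-ATPase is a rotary proton pump. Its cytosolic V1 sector splits ATP and turns a rotor, its membrane sector V0 carries protons into the lumen, and V1 can detach from V0 to silence the pump. Cathepsins are proteases that mature and work at low pH, LAMP1 and LAMP2 are the abundant glycoproteins of the lysosomal membrane, and TFEB and TFE3, relatives of the melanocyte factor MITF, activate lysosomal genes when they enter the nucleus. In melanocytes the same pump also works in melanosomes, which are organelles related to lysosomes.

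Of the 44 genes, 34 had enough counts for the test across 13620 genes. WT31_P5IV had higher RNA of 14 and lower RNA of 15, while 5 did not pass the test (edgeR's quasi-likelihood test, Benjamini-Hochberg adjusted p below 0.05). WT31 replicates 2 and 3 lay closer to each other than to the other WT31 libraries, and without both of them 12 were higher and 16 lower. Over all tested genes 34.6% were higher and 33.9% lower, 68.5% in all. In 25 of the 34 genes every library of one line lay above every library of the other, whereas the share over all genes tested was 54.1%. The median log2 fold change of the 34 genes was -0.02, beside 0.01 for all tested genes. In RNA from a culture, a change in the number of cells that express a gene and a change in RNA per cell cannot be told apart. Most changes were small. An absolute log2 fold change of at least 1 was reached by 3 genes, Atp6v0d2, Ctso and Atp6v1c2, against 9.10% of all tested genes, and all 3 were low and lower in WT31_P5IV. The abundant genes split by role. V1 subunits were mostly lower, the accessory proteins, 3 of the V0 subunits and the most abundant cathepsins were higher, and Mcoln1 rose most. On TPM, transcript levels corrected for length and library size, log2 fold changes were shifted by a median of -0.167 over all tested genes, and 9 of the genes were higher and 17 lower, beside 21.4% and 43.7% of all tested genes. With each library centred on its median log2 TPM over the tested genes, 13 were higher and 15 lower.

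**Figure D1:**
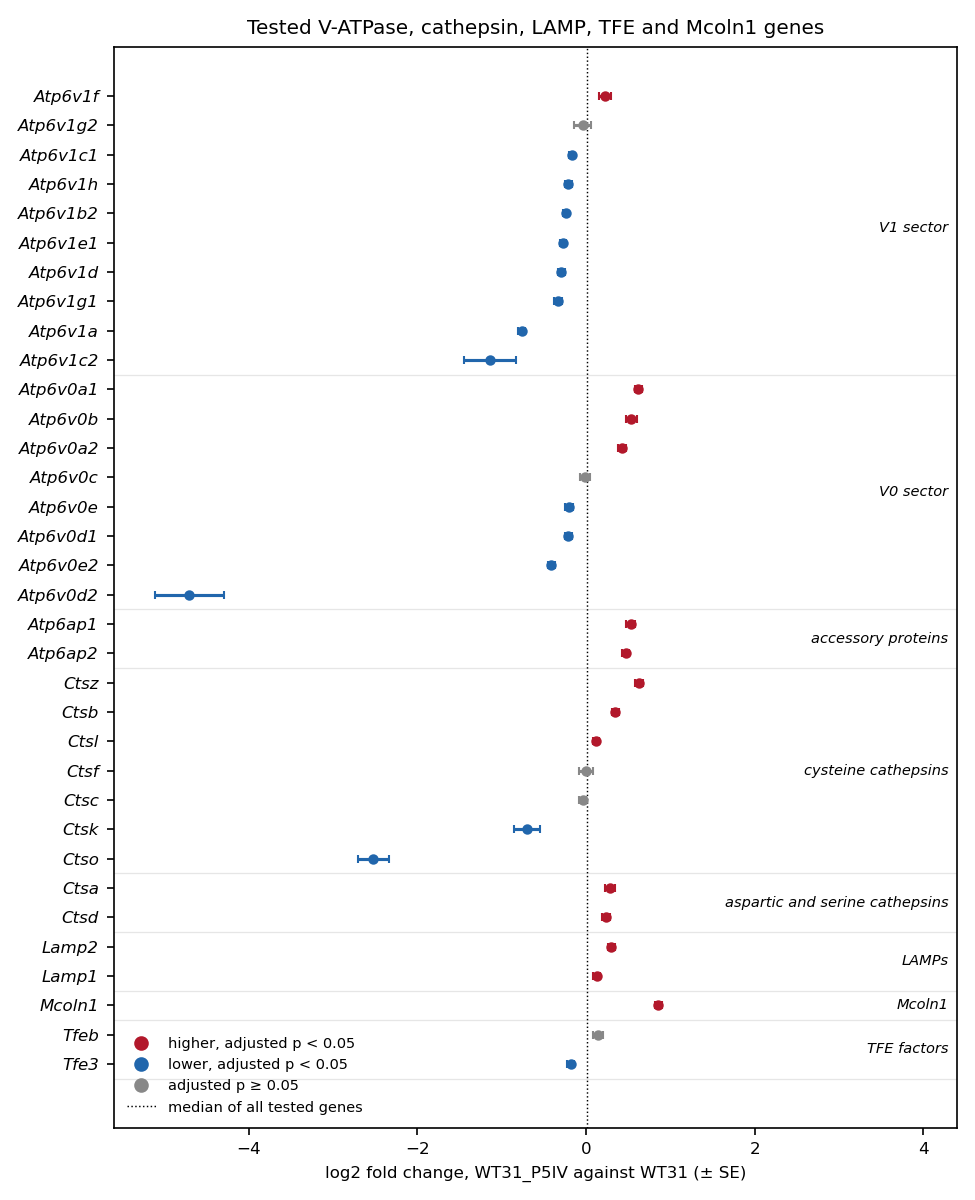
Log2 fold change (WT31_P5IV against WT31, ± SE, n = 5 libraries per group) of the 34 tested genes, ordered by role, with the median of all tested genes as a dotted line. Among the V1 subunits 8 points are coloured as lower, Mcoln1 stands highest at 0.86, and Atp6v0d2 and Ctso lie far below the rest.

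TFEB, TFE3 and MITF bind E-box-like sites with the core CACGTG, so the promoters were searched for it. The windows run from 250 bases before to 50 bases after the start site and come from RefSeq on GRCm38.p6, where 35 of the 44 genes had one. The letters CACGTG, which read the same on both strands, were found in 10 of these genes (28.6%) and in 8.09% of 27025 genes with a window. The longer form TCACGTGA, which contains CACGTG, was found in 6 genes (17.1%), against 1.12% of all genes, and the full 10-base CLEAR palindrome, TCACGTGA between G and C, in none of them, against 0.37%. Of the 10 genes with CACGTG 6 were higher, 3 were lower and Ctsf had no call. Of the 6 genes with TCACGTGA, Mcoln1, Ctsd and Ctsa were higher in WT31_P5IV, and Atp6v1a, Atp6v0d1 and Atp6v0e were lower. A match is a description of letters in this window and does not show that a factor binds there. Windows of both directions are shown for the most increased gene (Mcoln1, chr8:3500269-3500568, plus strand), the most abundant cathepsin (Ctsd, chr7:142387778-142388077, minus strand), the most decreased abundant pump gene (Atp6v1a, chr16:44139210-44139509, minus strand) and a rotor gene (Atp6v0d1, chr8:105566015-105566314, minus strand), 5′ to 3′, with CACGTG or TCACGTGA in capitals.
Mcoln1: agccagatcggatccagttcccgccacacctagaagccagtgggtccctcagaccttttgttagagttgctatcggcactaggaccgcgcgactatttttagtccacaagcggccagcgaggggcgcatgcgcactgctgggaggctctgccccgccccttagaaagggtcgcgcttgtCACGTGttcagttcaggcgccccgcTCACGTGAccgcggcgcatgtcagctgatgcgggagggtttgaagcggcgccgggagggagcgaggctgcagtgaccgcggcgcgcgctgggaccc
Ctsd: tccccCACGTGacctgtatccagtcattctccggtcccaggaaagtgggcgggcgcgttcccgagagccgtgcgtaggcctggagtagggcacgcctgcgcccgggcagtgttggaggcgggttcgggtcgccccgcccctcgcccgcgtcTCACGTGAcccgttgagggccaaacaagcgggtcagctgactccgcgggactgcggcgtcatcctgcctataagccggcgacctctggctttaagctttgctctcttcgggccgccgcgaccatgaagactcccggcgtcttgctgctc
Atp6v1a: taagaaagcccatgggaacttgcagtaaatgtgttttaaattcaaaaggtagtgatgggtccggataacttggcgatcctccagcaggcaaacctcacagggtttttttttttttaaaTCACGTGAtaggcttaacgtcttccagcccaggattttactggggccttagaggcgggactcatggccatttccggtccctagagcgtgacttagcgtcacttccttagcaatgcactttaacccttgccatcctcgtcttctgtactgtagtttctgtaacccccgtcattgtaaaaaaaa
Atp6v0d1: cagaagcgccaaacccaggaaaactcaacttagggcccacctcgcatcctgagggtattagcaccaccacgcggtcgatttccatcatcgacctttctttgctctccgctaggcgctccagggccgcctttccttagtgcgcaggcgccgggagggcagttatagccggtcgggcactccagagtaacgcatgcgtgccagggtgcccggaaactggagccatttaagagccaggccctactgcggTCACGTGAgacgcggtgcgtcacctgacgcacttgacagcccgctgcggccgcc
TCACGTGA begins 46 bases before the start site in Mcoln1, 99 before it in Ctsd, 132 before it in Atp6v1a and 4 before it in Atp6v0d1. Mcoln1 and Ctsd hold another CACGTG, which begins 71 and 245 bases before the start.

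The V1 sector was mostly lower in WT31_P5IV. Of its 13 genes 10 were tested, and 8 were lower, 1 was higher and 1 did not pass the test, with a median log2 fold change of -0.26. On the TPM scale, where the median of all genes was -0.14, 9 were lower and none was higher, with a median of -0.43. Atp6v1a, on chromosome 16 (44085402 to 44139705, GRCm38), codes for subunit A, which holds the catalytic site. Its RNA measured 354, 352, 357, 332 and 335 CPM (counts scaled to library size) in WT31 and 204, 216, 198, 200.5 and 205 CPM in WT31_P5IV. The groups were far apart and tight, at 346 ± 11.8 and 205 ± 6.70 CPM (mean ± SD, n = 5), a log2 fold change of -0.76 ± 0.04 (SE; adjusted p = 2.05e-10). The 415 tested genes of chromosome 16 had a median log2 fold change of -0.42, the fold change of Atp6v1a minus that median was -0.33, and the part of the chromosome in this result was not tested.

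The other abundant V1 genes that were lower differed by less. Subunit B, which forms the ATPase ring together with subunit A, came from Atp6v1b2 in nearly all reads, with 264 ± 6.74 CPM in the parental and 223 ± 7.72 CPM in the passaged line (log2 fold change -0.24 ± 0.03, adjusted p = 1.99e-05). Atp6v1e1 codes for a peripheral stalk subunit and had the highest mean TPM of the sector over all 10 libraries, 308 ± 11.3 in WT31 and 226 ± 5.01 in WT31_P5IV. Its libraries gave 231, 213, 228, 242 and 235 CPM in WT31 and 189, 191, 194, 195 and 185 CPM in WT31_P5IV. In WT31_P5IV alone Atp6v1f was slightly above it, at 230.0 ± 9.79 TPM. The CPM of Atp6v1e1 did not overlap between groups, and the log2 fold change was -0.27 ± 0.04 (adjusted p = 1.81e-05), although its chromosome 6 had a median of 0.28 over 677 tested genes. Atp6v1g1, the other stalk subunit, had a log2 fold change of -0.33, the rotor subunit Atp6v1d -0.29, the regulatory subunit Atp6v1h -0.21 and Atp6v1c1, the subunit through which V1 is attached and released, -0.17. None of these 4 overlapped between groups. Pseudogenes share 24% of the 31-base words of Atp6v1g1, and the main one, Gm13453, was listed at 0.00784 and 0.0582 CPM.

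Atp6v1f, a rotor subunit, went the other way, with 75.8 ± 9.21 CPM in the parental and 89.0 ± 3.36 CPM in the passaged line (log2 fold change 0.23 ± 0.07, adjusted p = 0.00732). Its groups overlapped and its chromosome 6 median was 0.28. The call was lost on TPM and with limma voom, run without scaling and filter (0.17). It held on centred TPM (0.21) and without WT31 replicates 2 and 3 (0.10). Atp6v1f shares 18.4% of its words with a pseudogene listed at 0 in both lines. Among the tissue-restricted isoforms, Atp6v1c2 fell. It read 0.392, 0.530, 0.628, 0.590 and 0.554 CPM in WT31 and 0.210, 0.172, 0.442, 0.253 and 0.124 CPM in WT31_P5IV, so that 1 subline library lay within the WT31 range. The summed counts were 69 and 29, a ratio of 2.23 (95% exact counting interval 1.42 to 3.57), and the log2 fold change was -1.14 ± 0.31 (adjusted p = 0.00386). Without WT31_P5IV replicate 5 it was -0.98, below the limit of 1. Atp6v1g2, a neuronal form of subunit G, stood at 4.90 ± 0.706 and 4.76 ± 0.196 CPM and did not pass the test (log2 fold change -0.04 ± 0.10, adjusted p = 0.735).

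In the V0 sector 8 of 9 genes were tested, and 3 were higher, 4 lower and 1 without a call, with a median log2 fold change of -0.10. The same split of 3 and 4 was found on TPM. The higher genes were those of subunits a and b. Atp6v0a1, the main form of the large subunit a that anchors V1 and forms the proton channels, measured 479.7, 462, 484, 497 and 506 CPM in WT31. In WT31_P5IV it measured 728, 813, 757, 691 and 738 CPM. The groups were well apart, and the log2 fold change was 0.62 ± 0.04 (adjusted p = 1.39e-08). Atp6v0a2, the form of subunit a known from the Golgi and endosomes, was higher by 0.43 ± 0.05, at 92.5 ± 4.71 and 125 ± 8.94 CPM. Atp6v0b, a proton-carrying ring subunit, read 126, 106, 107, 122 and 129.7 CPM in WT31 and 170.2, 175, 168, 163 and 181 CPM in WT31_P5IV. Every subline library was above every parental one (log2 fold change 0.54 ± 0.06, adjusted p = 9.22e-07).

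Atp6v0c, the main ring subunit, was by far the most abundant pump transcript, at 1735 ± 176 TPM in WT31 and 1551 ± 44.5 TPM in WT31_P5IV. Its libraries read 1008, 846, 938, 1071 and 1127 CPM in WT31 and 977, 1058, 979, 998 and 958 CPM in WT31_P5IV. The parental libraries spanned all of the subline values, and the log2 fold change was -0.01 ± 0.06 (adjusted p = 0.943). Without WT31 replicates 2 and 3, the lowest parental libraries here, it was -0.12 and passed the test (adjusted p = 0.0201). The rotor subunit Atp6v0d1 was lower by 0.21, at 146 ± 7.97 and 125 ± 5.39 CPM, without overlap. The small subunit e fell in both forms, Atp6v0e (log2 fold change -0.20, overlapping groups) and Atp6v0e2 (-0.41, 97.2 ± 5.11 and 73.2 ± 2.77 CPM, no overlap).

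Atp6v0d2, on chromosome 4 (19876841 to 19922605), is the form of subunit d known from osteoclasts, macrophages and kidney. It read 1.29, 1.17, 1.45, 0.983 and 1.15 CPM in WT31 and 0, 0.0429, 0.121, 0 and 0.0413 CPM in WT31_P5IV. All subline values lay at or below the 3 counts (0.121 to 0.129 CPM) that a count of 0 allows, and all parental values above it. The summed counts were 155 and 5, a ratio of 29.02 (95% exact counting interval 12.2 to 90.6), and the fitted log2 fold change was -4.70 ± 0.41 (adjusted p = 7.51e-08). Without WT31_P5IV replicate 3, which held 3 of the 5 counts, it was -5.55. Even in WT31 it made up 0.506% of subunit d by TPM, the rest being Atp6v0d1. The macrophage marker Lyz2 moved the same way (adjusted p = 7.64e-09), while Cd68, a lysosomal protein also used as a macrophage marker but not in the marker list, was higher in WT31_P5IV. The summed CPM of the 8 listed macrophage and leukocyte markers was 3.96 to 5.23 in WT31 and 1.05 to 1.53 in WT31_P5IV, of which Lyz2 gave 4.33 ± 0.530 and 1.08 ± 0.156. The means of Ptprc, Adgre1, Csf1r and Itgam were slightly higher and that of Cd163 was lower in WT31_P5IV, all below 0.1 CPM and untested, while Cd14 and Clec4f were at 0 in all libraries and 2 of the 8 exceeded 3 counts in any library. Their part in the result was not tested.

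Both accessory proteins, which help V0 to assemble in the endoplasmic reticulum, were higher, and remained so on TPM. Atp6ap1 measured 284, 256, 266, 282 and 295 CPM in WT31 and 395, 430.4, 409, 372 and 392 CPM in WT31_P5IV. The gap between the groups was larger than the range of either, with a log2 fold change of 0.53 ± 0.05 (adjusted p = 1.39e-07). Atp6ap2, also known as the prorenin receptor, was higher by 0.47 ± 0.04, at 115 ± 4.62 and 159 ± 6.08 CPM. Both lie on chromosome X, whose 393 tested genes had a median of -0.13.

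**Figure D2:**
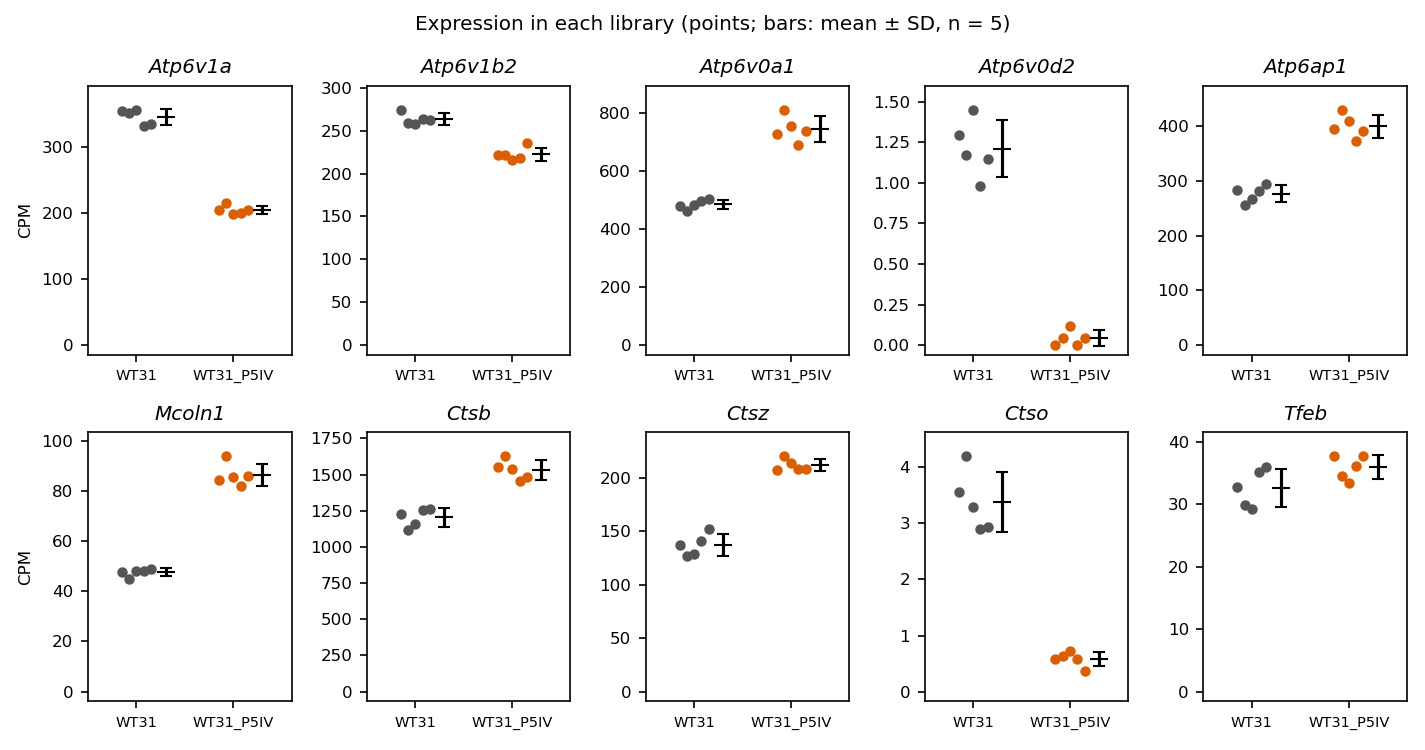
CPM of 10 genes in each library (points), with mean ± SD of 5 libraries beside them, on linear axes. Atp6v1a and Atp6v1b2 are lower and Atp6v0a1, Atp6ap1, Mcoln1, Ctsb and Ctsz higher in every WT31_P5IV library, while the points of Tfeb overlap between the groups.

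Because TPM is corrected for transcript length, it also shows how the transcripts of the pump compared with each other. Within the enzyme, subunits A and B are present in equal number. The ratio of Atp6v1a to Atp6v1b2 TPM was 0.882 ± 0.0478 in WT31 and 0.614 ± 0.0219 in WT31_P5IV, and the libraries did not overlap. The ratio of Atp6v1a to Atp6v0a1 TPM was 0.591 ± 0.0367 in WT31 and 0.231 ± 0.0103 in WT31_P5IV. The ratio of Atp6ap1 to Atp6v1a TPM rose from 1.61 ± 0.158 to 3.96 ± 0.164. These ratios, which are levels of RNA and not of protein, differed more between the lines than any of their libraries did within a line.

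Subunit a is made from several genes, among them Tcirg1, the form a3 of osteoclasts and lysosomes, whose symbol lies outside the rule. Tcirg1 measured 44.97 ± 2.07 CPM in WT31 and 79.4 ± 5.73 CPM in WT31_P5IV, a log2 fold change of 0.82 ± 0.05 (adjusted p = 4e-09). By TPM it made up 12.8 ± 0.537% of subunit a in WT31 and 15.2 ± 1.37% in WT31_P5IV, without overlap. Atp6v0a1 held 77.3 ± 1.03% and 76.2 ± 1.23% with overlap, a difference that changed sign when shares were taken from CPM, and Atp6v0a2 held 9.89 ± 0.598% and 8.58 ± 0.469%, with overlap. Atp6v0e2 gave 26.8 ± 0.937% of subunit e in WT31 and 24.2 ± 0.827% in WT31_P5IV, without overlap. The main isoform of each subunit was therefore the same in both lines.

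Among the 12 cathepsins 9 were tested, and 5 were higher and 2 lower. On TPM 3 were higher and 3 lower, with a median of -0.06, and Ctsc was the added lower call (-0.20). Ctsd, the main aspartic protease of the lysosome, had the highest TPM, 972 ± 33.98 in WT31 and 1016 ± 60.9 in WT31_P5IV. Its libraries read 1298, 1145, 1227, 1313 and 1312 CPM in WT31 and 1453, 1610, 1520, 1357 and 1483 CPM in WT31_P5IV. The groups came close without touching, and the log2 fold change was 0.24 ± 0.05 (adjusted p = 0.00077). The call was lost on TPM (0.06) and held on centred TPM (0.22). The protein-coding gene Gm49369 shares 33.2% of the 31-base words of Ctsd and was listed at 0.389 and 0.151 CPM, so the split of reads between them is uncertain. Ctsa, the serine carboxypeptidase that also protects beta-galactosidase and neuraminidase, was higher by 0.29 ± 0.06, at 253 ± 21.5 and 309 ± 16.6 CPM. It shares 14.6% of its words, its first partner being the overlapping gene Pltp (7.15 and 11.99 CPM).

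Of the 7 tested cysteine cathepsins 3 were higher and 2 lower. Ctsb, an endopeptidase and carboxydipeptidase, led them with 715 ± 15.2 TPM in WT31 and 796 ± 36.9 TPM in WT31_P5IV. It measured 1228, 1118, 1155, 1256 and 1260 CPM in WT31 and 1554, 1628, 1537, 1456 and 1481 CPM in WT31_P5IV, with no overlap (log2 fold change 0.35 ± 0.04, adjusted p = 6.41e-06). It shares 13.0% of its 31-base words, its first partner being Fdft1 (125 and 107 CPM), so the split of these reads is uncertain. Ctsz, a carboxypeptidase on chromosome 2 (174427493 to 174439039), showed the largest rise of the family. Its libraries read 137, 127, 128, 141 and 152 CPM in WT31 and 208, 220.4, 214, 208 and 208 CPM in WT31_P5IV. The subline values were all above the parental ones (log2 fold change 0.63 ± 0.05, adjusted p = 2.79e-08). Ctsl, a potent endopeptidase, was higher by 0.12 ± 0.04 with overlapping groups (adjusted p = 0.0212), a call that held in 7 of 20 alternatives. It was lost in 6 of the 10 fits that left out a library, without WT31 replicates 2 and 3, and with DESeq2, limma voom, every gene of at least 1 count and centred TPM (0.05 to 0.10 in these 4), and its sign turned on uncentred TPM (-0.06). It shares 28.2% of its words, its first partner being the antisense gene Gm47123 (0.216 and 0.285 CPM). Ctsc, which activates serine proteases of immune cells, and Ctsf did not pass the test, with log2 fold changes of -0.04 ± 0.04 (adjusted p = 0.344) and 0.00 ± 0.08 (adjusted p = 0.981).

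Both lower cathepsins were rare transcripts. Ctso, on chromosome 3 (81932601 to 81956725), is a little studied cysteine protease. It read 3.57, 4.20, 3.29, 2.91 and 2.93 CPM in WT31 and 0.589, 0.643, 0.724, 0.590 and 0.372 CPM in WT31_P5IV. Not one subline library came near the parental range. The summed counts were 434 and 70, a ratio of 5.80 (95% exact counting interval 4.50 to 7.58), and the log2 fold change was -2.52 ± 0.18 (adjusted p = 1.03e-08). Ctsk, the collagen-cleaving protease of osteoclasts, read 2.66, 2.08, 2.43, 2.52 and 3.05 CPM in WT31 and 1.22, 1.501, 1.65, 1.47 and 1.98 CPM in WT31_P5IV. The highest subline library stayed just below the lowest parental one, and the log2 fold change was -0.70 ± 0.15 (adjusted p = 0.000696).

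**Figure D3:**
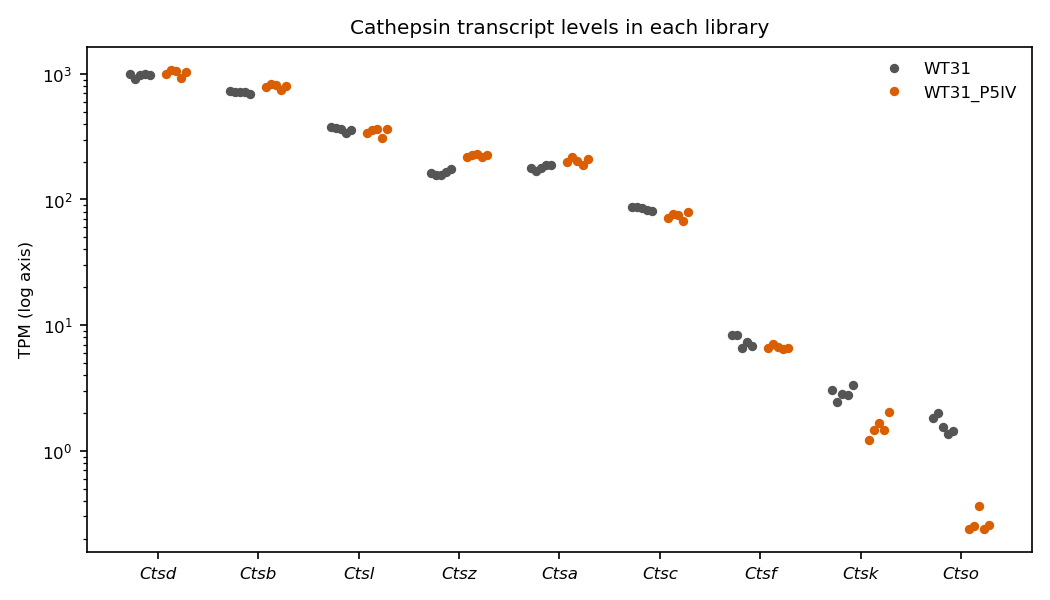
TPM of the 9 tested cathepsins in each library, on a log axis, with WT31 in grey and WT31_P5IV in orange. Ctsd and Ctsb lie at the top in both lines, and Ctsk and Ctso at the bottom with lower subline values.

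The pool of cathepsin RNA was dominated by the same genes in both lines. Ctsd and Ctsb together made up 67.7 ± 0.551% of the summed cathepsin TPM in WT31 and 67.9 ± 0.346% in WT31_P5IV. The share of Ctsz was 6.59 ± 0.294% in WT31 and 8.41 ± 0.285% in WT31_P5IV, without overlap, and the share of Ctsl was 14.5 ± 0.587% and 13.0 ± 0.322%, also without overlap. Summed over all cathepsins, CPM was 3286 ± 174 in WT31 and 3986 ± 194 in WT31_P5IV without overlap, whereas summed TPM was 2491 ± 42.95 and 2670 ± 137 and overlapped.

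Of the LAMP genes, Lamp1 and Lamp2 were tested. Lamp1 had the higher TPM, 469 ± 7.61 in WT31 and 455 ± 17.4 in WT31_P5IV. It measured 649, 609, 611, 659 and 668 CPM in WT31 and 682, 753, 711, 673 and 676 CPM in WT31_P5IV. The lowest subline library was barely above the highest parental one. The log2 fold change was 0.13 ± 0.04 (adjusted p = 0.0136). That call was lost without WT31 replicate 3 (log2 fold change 0.10), without WT31 replicates 2 and 3 (0.07), with limma voom (0.06) and with every gene of at least 1 count (0.07). Its sign turned on TPM (-0.04), while on centred TPM it was 0.11 and passed. Lamp2, whose A isoform serves chaperone-mediated autophagy, was higher by 0.30 ± 0.04, at 337 ± 8.32 and 417 ± 22.7 CPM without overlap (adjusted p = 9.89e-06), a call that was lost on TPM (0.09) and held on centred TPM (0.25).

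Mcoln1, on chromosome 8 (3500457 to 3515232), codes for the calcium release channel of the lysosomal membrane, which lies upstream of TFEB activation and is a TFEB target. It showed the largest increase of the 34 tested genes. Its libraries read 47.9, 44.9, 48.2, 48.2 and 49.0 CPM in WT31 and 84.1, 93.8, 85.6, 82.0 and 86.0 CPM in WT31_P5IV. The gap between the lines was many times the spread within them, and the fitted fold was 1.81, with a log2 fold change of 0.86 ± 0.04 (adjusted p = 2.69e-10). The call held in all alternatives run, with log2 fold changes of 0.67 to 0.89.

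The TFE factors themselves changed little. Tfe3, on chromosome X, measured 57.4, 55.0, 58.4, 58.7 and 58.4 CPM in WT31 and 53.4, 50.4, 49.4, 53.9 and 46.8 CPM in WT31_P5IV. All subline values were below all parental ones, by a small step (log2 fold change -0.18 ± 0.04, adjusted p = 0.00161). Tfeb had 32.7 ± 3.01 CPM in the parental and 35.9 ± 1.91 CPM in the passaged libraries, with overlap, and did not pass the test (log2 fold change 0.14 ± 0.06, adjusted p = 0.0577). It passed as higher with upper-quartile scaling (0.17) and without WT31 replicate 4 (0.15), WT31 replicate 5 (0.16) or WT31_P5IV replicate 3 (0.16), and its sign turned on TPM (-0.10). Mitf, their relative in the melanocyte lineage, read 336, 390.1, 370.4, 319 and 313 CPM in WT31 and 335, 334, 349, 334 and 360.3 CPM in WT31_P5IV. Its groups overlapped widely, with a log2 fold change of -0.01 ± 0.06 (adjusted p = 0.840). By TPM, Mitf made up 72.3 ± 3.45% of the summed Mitf, Tfe3, Tfeb and Tfec in WT31 and 72.9 ± 1.31% in WT31_P5IV. These are levels of RNA, and the activity of these factors is set largely by phosphorylation and nuclear entry, which were not measured.

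The 10 untested genes were at or near the limit of detection, which was 3 counts or 0.114 to 0.129 CPM. Lamp3 of activated dendritic cells, Ctse of gastric epithelium and immune cells and Ctss of antigen-presenting cells had 0 counts in all 10 libraries. Tfec, the kidney and inner ear subunits Atp6v0a4 and Atp6v1b1, the kidney subunit Atp6v1g3, the testis subunit Atp6v1e2 and Atp6v1fnb had up to 4 counts in some libraries, and Ctsh had 2 to 7 counts in every library. Exact two-sided permutation tests of their CPM gave p-values from 0.0476 (Atp6v1fnb) to 1 over 7 genes, without adjustment. Atp6v1fnb ranged from 0 to 0.0378 CPM in WT31 and from 0 to 0.168 CPM in WT31_P5IV, with overlap.

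The surrounding lysosomal pathway was described with 7 further lists of 124 genes, 116 of them tested, of which 74 were higher and 21 lower in WT31_P5IV, with a median log2 fold change of 0.30. On TPM, where the median of all genes was -0.14, 54 were higher and 34 lower (all tested genes, 21.4% and 43.7%). Hydrolases other than cathepsins, listed together with a few helper proteins, were mostly higher. Of 39 tested genes of this list, 36 were higher and 2 lower, with a median of 0.53. On TPM 32 were higher and 3 lower with a median of 0.39. The helpers were the activator proteins Psap (log2 fold change 0.57) and Gm2a (-0.24, lower) and the sulfatase-modifying enzyme Sumf1 (0.52). The largest rise was in Sgsh, the sulfamidase of heparan sulfate breakdown, from 9.23 ± 0.872 to 33.8 ± 2.23 CPM (log2 fold change 1.87 ± 0.07, adjusted p = 1.23e-11). Ids, the iduronate sulfatase of the same pathway, fell from 46.7 ± 3.72 to 38.97 ± 1.36 CPM (-0.26 ± 0.05, adjusted p = 0.000437). Proteins that tag and sort hydrolases were higher in 8 of 9 genes and lower in none, with Sort1, the sorting receptor sortilin, at 435 ± 19.5 and 732 ± 62.1 CPM (0.75 ± 0.05, adjusted p = 1.85e-08). On TPM 4 of the 9 were higher and 1 lower.

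Other lysosomal membrane proteins were higher in 16 and lower in 2 of 23 tested genes, with a median of 0.36. On TPM 10 were higher and 4 lower, with a median of 0.14. Cd68, a relative of the LAMP proteins, rose from 1.37 ± 0.455 to 3.73 ± 0.638 CPM (log2 fold change 1.45 ± 0.20, adjusted p = 1.16e-05). Laptm5, a lysosomal protein of blood cells, fell from 13.8 ± 1.42 to 7.11 ± 0.844 CPM (-0.95 ± 0.09, adjusted p = 2.51e-07). Cystatins, the inhibitors of cysteine cathepsins, were higher in 2 and lower in none of 3 tested genes, with Cst3, which codes for cystatin C, at 72.5 ± 8.17 and 123.9 ± 3.32 CPM (0.77 ± 0.06, adjusted p = 5.96e-08). On TPM 2 were higher and 1 lower, as also without WT31 replicates 2 and 3.

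The remaining lists did not share that direction. A list of 12 genes held V-ATPase assembly factors, other pump-binding proteins (Ncoa7 and Oxr1, both lower) and chloride/proton exchangers with the partner protein Ostm1. Of these 4 were higher and 6 lower, with a median of -0.16, and on TPM 2 were higher and 6 lower. Clcn6, an endosomal exchanger, was higher by 0.63 ± 0.04 (adjusted p = 1.16e-08), and Wdr7, a partner of the pump, was lower, with a log2 fold change of -0.46 ± 0.04 (adjusted p = 3.76e-07). Of 17 genes of the signaling that controls TFE factors (mTORC1, Rag and Lamtor genes, folliculin and its partners, calcineurin) and Mitf, 2 were higher and 6 lower, 2 of the latter being the calcineurin genes Ppp3ca and Ppp3r1. On TPM 1 was higher and 13 were lower, with a median of -0.30, on a scale where 43.7% of all tested genes were lower. Rragd, a Rag GTPase that brings mTORC1 and TFE factors to the lysosome, fell from 63.6 ± 4.13 to 35.6 ± 2.42 CPM (-0.84 ± 0.05, adjusted p = 5.42e-09), and Rptor, a subunit of mTORC1, rose by 0.40 ± 0.05 (adjusted p = 9.86e-06). Of 13 listed TFEB targets, most of them autophagy genes, 6 were higher and 5 lower, and on TPM 3 were higher and 6 lower. The higher ones included Gpnmb (0.71) and Ppargc1a (0.18), which are not autophagy genes. Atg9b rose from 0.233 ± 0.0736 to 0.733 ± 0.0886 CPM (1.63 ± 0.24, adjusted p = 2.7e-05), and Wipi1, which acts at the forming autophagosome, fell with a log2 fold change of -0.49 ± 0.05 (adjusted p = 2.47e-07).

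**Figure D4:**
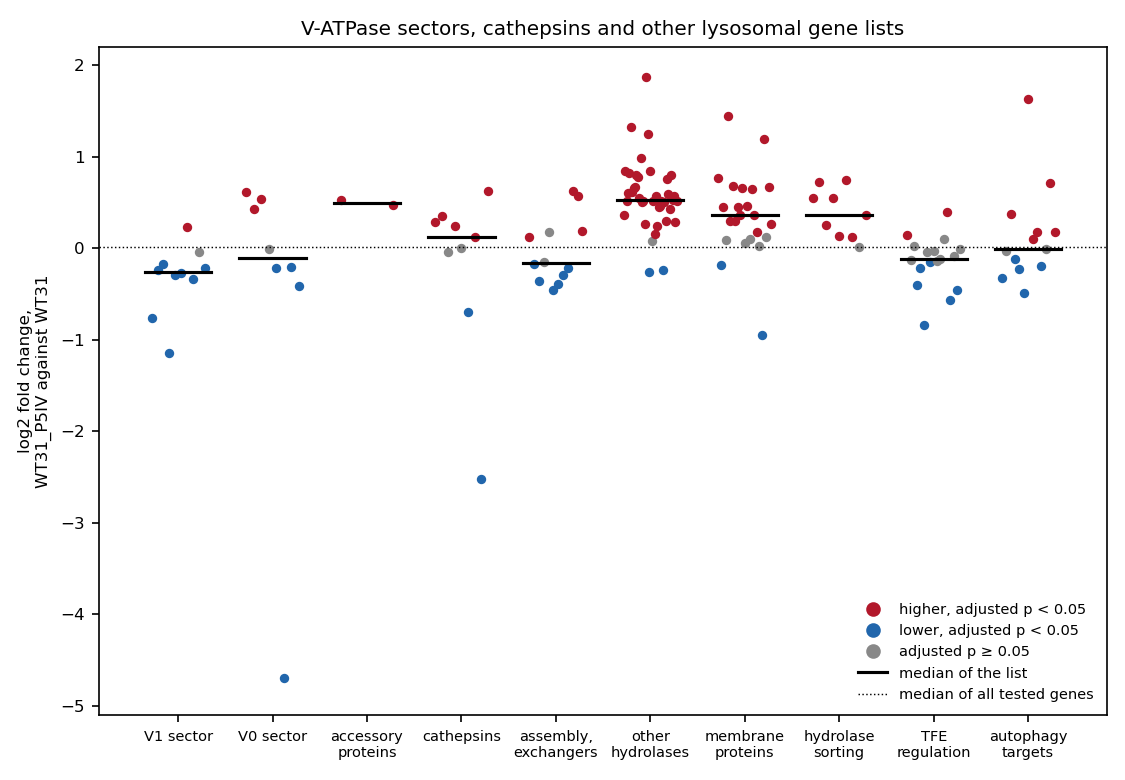
Log2 fold change (WT31_P5IV against WT31) of each tested gene (points) in the V-ATPase sectors, the accessory proteins, the cathepsins and 6 of the 7 further lists, with a bar at the median of each list and a dotted line at the median of all tested genes. The median of the list named other hydrolases, which includes a few helper proteins, is 0.53, while the V1 sector lies at -0.26.

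The libraries held 24255389 to 25750639 estimated counts. Among the 27 described genes with at least 1000 counts in every library, the coefficient of variation had a median of 4.96% (1.31 to 12.2%) in WT31 and 4.39% (1.75 to 7.15%) in WT31_P5IV. All 6 melanocyte markers were detected, with a summed CPM of 16656 to 18130 in WT31 and 21894 to 25395 in WT31_P5IV. Of these Pmel (log2 fold change 1.22), Dct (0.80) and Tyr (0.25) were higher, Tyrp1 (-0.96) and Sox10 (-0.14) lower, and Mlana (0.01) did not pass the test. Summed markers of hepatocytes were at 0.227 to 0.554 and 0.402 to 1.18 CPM, those of endothelial cells at 0.119 to 0.416 and 0.161 to 0.421 CPM, and those of stellate cells and fibroblasts at 1.97 to 2.63 and 3.12 to 3.62 CPM, without overlap. Of the latter, Acta2 rose from 0.275 to 0.758 CPM (log2 fold change 1.46 ± 0.32, adjusted p = 0.000969) and Col1a1 from 0.868 to 1.73 CPM (1.00 ± 0.18, adjusted p = 0.000156). The other 4 had lower means in WT31_P5IV, of which Pdgfrb did not pass the test (-0.18 ± 0.32, adjusted p = 0.618) and Des, Lrat and Dcn were not tested. The part of these markers in the results was not tested.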

How the data were processed

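RNA of cultured cells was sequenced in 5 WT31 and 5 WT31_P5IV libraries. According to the methods and labels, the authors trimmed reads with Trim Galore 0.6.4 and obtained estimated counts with kallisto against GRCm38.p6, and per gene estimated counts and TPM were deposited. The annotation release is not given in the sources used here, and 55144 of the 55385 identifiers matched GENCODE M21, which gave the symbols.

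After rounding to whole numbers, the estimated counts were tested with edgeR 4.0.16 under R 4.3.3 (filterByExpr, TMM scaling, quasi-likelihood F-test), with p-values adjusted by Benjamini-Hochberg across the 13620 tested genes. CPM used TMM-scaled library sizes. The SE came from the log2 fold change without prior count and the F statistic. Shared 31-base words were counted in the transcripts. DESeq2 1.42.0, limma 3.58.1 voom on counts without TMM scaling or filterByExpr, and limma on TPM (pseudocount 0.1 or 1) were alternatives. Other filters, the replicate block and fits without a library were further alternatives. The fit was tested on simulated data. Per-library values are given for genes past a log2 fold change of 1, the 10 largest changes and the most abundant gene of each role, and from each other list the largest change in each direction is named, with Mitf. The genes and lists were chosen with earlier results of these data known. Intervals and limits cover counting error only.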

Additional observations from a re-analysis of the deposited data

Results flagged for a closer look

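Of 68 groups of 5 libraries, 1 held a library far from the others. Mcoln1 stood at 44.9 CPM in WT31 replicate 2, while the other 4 WT31 libraries lay between 47.9 and 49.0 CPM, a gap larger than Dixon's critical value of 0.71 for the share of the range. Chance alone marks about 1 in 20 such groups. This library lies on the side away from WT31_P5IV, and the call of Mcoln1 held in the fits that left out a library (log2 fold change 0.82 to 0.87).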

How the results depend on the processing

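The total counts of higher and lower genes, over the described genes and over the further lists together, were within 1.5 times of those reported in all alternatives except the uncentred TPM fits, which called 9 of the described genes higher instead of 14 and, on the further lists, 34 genes lower instead of 21. TPM shifted the log2 fold changes of all genes by a median of -0.167 (pseudocount 0.1) or -0.159 (pseudocount 1), and the share of higher calls over all genes from 50.5% to 32.9% and 32.8%. With libraries centred, an alternative chosen after seeing the data like the fit without both WT31 replicates 2 and 3, 13 were higher and 15 lower. A minimum of 10 counts in every library left 0 genes past a log2 fold change of 1, because Atp6v0d2, Ctso and Atp6v1c2 were not tested, and TPM with a pseudocount of 1 left 1. By CPM, the share of Atp6v0a1 in subunit a differed by 0.556 percentage points (reversed), that of Tcirg1 by 1.15 and that of Atp6v0e2 in subunit e by -3.63.

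Signs turned only in genes near 0. On TPM Ctsl was at -0.06, Lamp1 at -0.04 and Tfeb at -0.10 with both pseudocounts, and Ctsf at -0.16 and -0.14. Ctsf was at -0.03 with DESeq2, -0.07 with limma voom, -0.05 with every gene of at least 1 count, -0.00 on centred TPM and -0.01 without both WT31 replicates 2 and 3. Atp6v0c was at 0.02 with upper-quartile scaling, 0.00 with the replicate block and 0.00 on centred TPM. With 1 library left out, Ctsf ranged from -0.05 to 0.03, Atp6v0c from -0.07 to 0.03 and Atp6v1g2 from -0.10 to 0.04. Without both WT31 replicates 2 and 3, Atp6v0c passed the test as lower (-0.12, adjusted p = 0.0201) and Ctsl and Lamp1 lost their calls. Atp6v0d2 was lower in all fits that tested it, at -5.55 to -0.79, the latter on TPM with a pseudocount of 1. Single lists moved more outside TPM. With limma voom, run without scaling and filter, 2 genes of the assembly list, 3 of the autophagy list and 1 of TFE control were higher. With every gene of at least 1 count, 1 gene of TFE control was higher and 10 lower. Without WT31 replicate 3 only 1 of the 2 LAMP genes was called higher. The cause of these shifts was not tested.

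Leaving out 1 library gave 12 to 15 higher and 15 lower genes. Same-numbered libraries of the groups did not deviate together (correlations -0.014, 0.067, 0.178, 0.08 and -0.096), and 2 of 5 WT31 libraries correlated best with their own number, so the numbers do not pair the libraries. With the replicate block 15 genes were higher and 15 lower, the added call being Tfeb (0.14, adjusted p = 0.0157, against 0.0157 to 0.541 over its alternatives). Depth limits Atp6v0d2, Atp6v1c2 and the 10 untested genes.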

Other observations

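WT31 replicates 2 and 3 were the lowest pair of parental libraries for 19 of the 34 tested genes (55.9%) and for 27.2% of all 13620 tested genes. Their mean chi-square distance per gene was 2.92 from each other and 7.81 to 22.7 from WT31 replicates 1, 4 and 5. WT31 replicates 4 and 5 also lay close together, at 2.37. They were the highest pair of parental libraries for 14 of the 34 tested genes and for 3128 of all 13620.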
